A study of Mus musculus with 6 samples.

Results

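The complement components and regulators C1qa, C1qb, C1qc, C2, C3, C4b, Cfb, Cfi and Serping1 were examined in adult mouse retinas lacking Onecut2. Members were all probe sets that the array's annotation gives to 1 of these 9 symbols, with C4b also taken where a probe set names C4a and C4b together. The rule found 12 of the 45101 probe sets on the array, for 8 of the 9 genes. No probe set carried the symbol C3 in the annotation used here, and C3 was not analysed here. Total retinal RNA was measured on 6 Affymetrix arrays, 3 from OC2-KO mice and 3 from OC2-WT littermates. OC2-KO mice carry a germline loss of Onecut2 in every tissue, and those profiled had reached maturity although many of this genotype die after birth. Both genotypes were labelled adult, with no treatment and no age given in the labels. Whether each array came from its own mouse is not stated in the labels, so the p-values speak only for variation from array to array, part of which may be technical.

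Complement is a cascade of secreted proteins that tags cells, debris and synapses for removal. C1q, built from the chains C1qa, C1qb and C1qc, binds its target and activates the proteases C1r and C1s, which cleave C4 and C2 to form the convertase of the classical pathway. Factor B, encoded by Cfb, supplies the protease of the alternative pathway. Serping1 encodes C1 inhibitor, which blocks C1r and C1s, and Cfi encodes factor I, which inactivates the deposited C4 and C3 fragments with the help of cofactors. In the central nervous system, C1q is made mainly by microglia, the resident macrophages, and complement is known in the retina for its part in synapse removal and in disease of the photoreceptors and the pigment epithelium.

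Several members lie side by side in the mouse genome. C1qb, C1qc and C1qa follow one another on chromosome 4, Cfb and C2 are neighbours on chromosome 17, and C4b lies on the same chromosome. C4a is also annotated on chromosome 17 and is listed there as a transcribed pseudogene, so 1418021_at cannot tell C4b from C4a. Serping1 is on chromosome 2 and Cfi on chromosome 3. The 250 bases before the start of C1qb and C1qc are shown because these neighbouring genes encode chains of 1 complex and are the members that the promoter table used here held. They are RefSeq sequences of the GRCm38.p6 assembly, at chr4:136886201-136886450 for C1qb and chr4:136892915-136893164 for C1qc, both on the minus strand and read 5′ to 3′ toward the gene. The table matched 2 of the 8 members with a probe set. Capitals mark GGAA or, for the opposite strand, TTCC, the core letters recognised by ETS factors such as PU.1 of myeloid cells.
C1qb: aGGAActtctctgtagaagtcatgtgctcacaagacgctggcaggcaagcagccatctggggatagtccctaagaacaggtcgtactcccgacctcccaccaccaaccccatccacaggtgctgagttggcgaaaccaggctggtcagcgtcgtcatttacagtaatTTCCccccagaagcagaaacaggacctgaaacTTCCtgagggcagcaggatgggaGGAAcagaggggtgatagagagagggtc
C1qc: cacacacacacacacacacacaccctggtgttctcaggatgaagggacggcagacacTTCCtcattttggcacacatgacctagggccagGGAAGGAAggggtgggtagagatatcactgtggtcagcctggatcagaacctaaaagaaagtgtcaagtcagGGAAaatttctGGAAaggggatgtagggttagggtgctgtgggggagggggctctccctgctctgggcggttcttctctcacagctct
The GGAA core occurred 4 times before C1qb and 5 times before C1qc, and 93.4% of 32851 promoter windows of the same length hold it on either strand, so its presence sets neither gene apart. The longer PU.1-type letters GAGGAAGT, which contain that core, occurred 0 times before C1qb and 1 time before C1qc, on the opposite strand, and 2.44% of the windows hold them. STAT-type TTCNNNGAA, C/EBP-type TTGCNNAA and the TATA box TATAAA were searched on both strands and were in neither window. Of all windows, 7.02%, 9.56% and 12.4% hold these motifs in that order. A match describes letters in the window and not binding.

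Arrays with the same number in their labels deviated together from their genotype means, with correlations of 0.576 to 0.590. Differences within each number are therefore given beside the means. Correlations between different numbers, -0.429 to -0.135, are not separate evidence, since deviations from a genotype mean cancel out. A probe set was kept for testing where its mean log2 intensity exceeded 7 in either genotype, which held for 21176 probe sets and for 5 of the 12 member probe sets, 1 each of C4b, Serping1, C1qa, C1qb and Cfi. C1qb and Cfi passed through their OC2-KO means alone, so counts over these 5 members describe them and do not support a difference. Differences are OC2-KO minus OC2-WT on the log2 intensity scale, and p-values are from limma, adjusted by Benjamini-Hochberg over all probe sets kept.

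C4b and Serping1 carried the 2 largest differences among the 5 members tested. The C4b probe set read 3.31-fold and that of Serping1 2.55-fold higher in OC2-KO retinas, and for both every OC2-KO array was above every OC2-WT array. C1qa was 1.51-fold higher with overlapping genotypes, while C1qb and Cfi overlapped widely. None of the 5 passed an adjusted p of 0.05. The study named C4b as a stress gene from these same arrays and listed Serping1 among its differing genes, so neither array value is independent evidence. For C4b the study also reported higher levels in adult OC2-KO retinas by follow-up qPCR, which was not analysed here.

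C4b, the complement component cleaved by C1s, had log2 intensities of 9.85, 10.41 and 8.74 in OC2-KO replicates 1, 2 and 3, against 7.39, 8.45 and 7.98 in OC2-WT replicates 1, 2 and 3. The lowest OC2-KO value, replicate 3, was still above the highest OC2-WT value, replicate 2. As deposited, these readings were intensities of 926, 1358 and 428 in OC2-KO and 168, 350 and 253 in OC2-WT. The means were 9.67 ± 0.85 in OC2-KO and 7.94 ± 0.53 in OC2-WT (SD, n = 3 each), a difference of 1.73 ± 0.47 (SE) with a limma p of 0.00763 and an adjusted p of 1.00. Within the numbers 1, 2 and 3 the difference was 2.46, 1.95 and 0.76. It ranked 31 of 21176 probe sets, and 99.9% of probe sets had a smaller difference.

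Serping1, which restrains the first step of the same pathway, had log2 intensities of 8.97, 9.88 and 8.54 in OC2-KO replicates 1, 2 and 3, against 7.40, 8.11 and 7.84 in OC2-WT replicates 1, 2 and 3. As with C4b, replicate 2 was the brightest array of each genotype and the genotypes did not overlap. The deposited intensities were 501, 941 and 372 in OC2-KO and 169, 276 and 228 in OC2-WT. The means were 9.13 ± 0.68 in OC2-KO and 7.78 ± 0.36 in OC2-WT (SD, n = 3 each), a difference of 1.35 ± 0.38 (SE) with a limma p of 0.00912 and an adjusted p of 1.00. The differences within the numbers were 1.57, 1.77 and 0.71, and the mean difference ranked 61 of 21176. A component of the classical pathway and an inhibitor of its first step thus both stood above every wildtype array on each OC2-KO array.

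**Figure D1:**
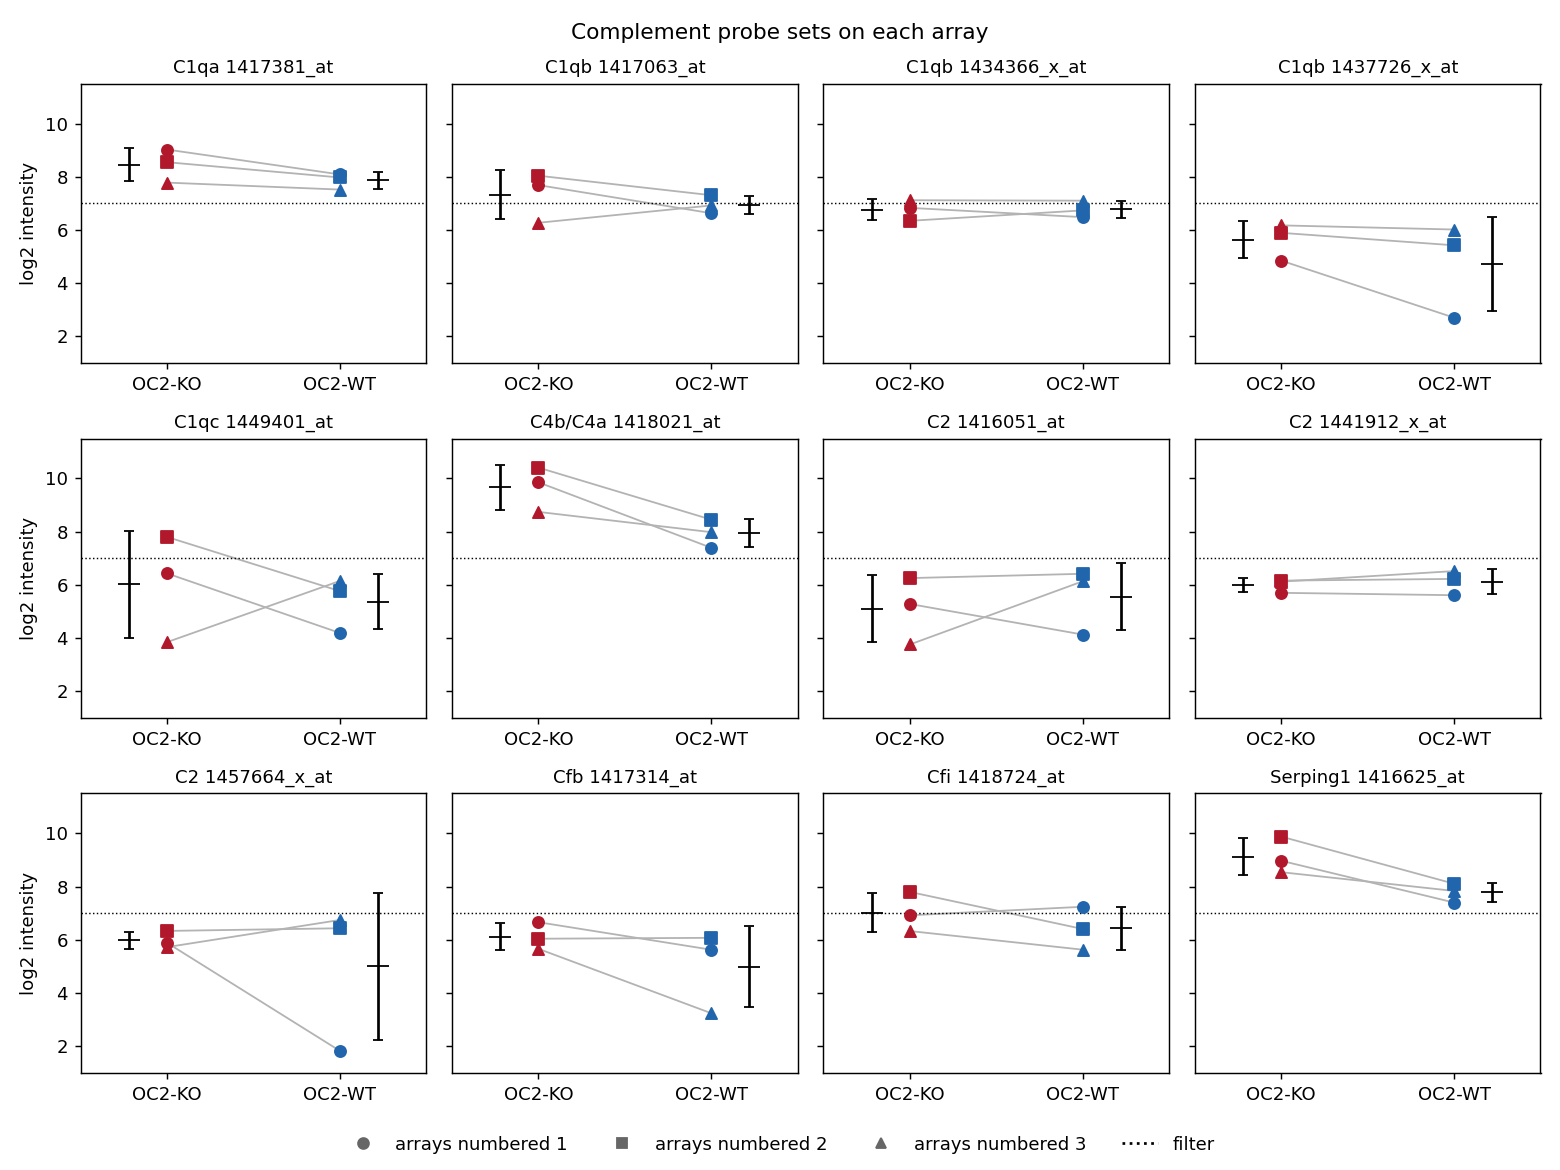
Log2 intensity (vertical axis) of each of the 12 member probe sets on every array, OC2-KO left in red and OC2-WT right in blue, with lines joining arrays of the same number, bars for each genotype's mean and SD (3 arrays) and a dotted line at the filter of 7. C4b and Serping1 are the panels where all 3 OC2-KO arrays stand above all 3 OC2-WT arrays.

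The 3 chains of C1q gave unequal readings. C1qa had log2 intensities of 9.02, 8.55 and 7.78 in OC2-KO replicates 1, 2 and 3, against 8.09, 7.97 and 7.52 in OC2-WT replicates 1, 2 and 3. OC2-KO replicate 3 fell inside the range of the wildtype arrays, yet each OC2-KO array was above the OC2-WT array of its own number, by 0.93, 0.57 and 0.26. The means were 8.45 ± 0.63 in OC2-KO and 7.86 ± 0.30 in OC2-WT (SD, n = 3 each), a difference of 0.59 ± 0.35 (SE), with a limma p of 0.138 and an adjusted p of 1.00. With the replicate number as a block the unadjusted p was 0.0230 and the adjusted p again 1.00.

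C1qb is covered by 3 probe sets, which disagreed. The plain probe set, 1417063_at, had log2 intensities of 7.69, 8.04 and 6.27 in OC2-KO and 6.63, 7.31 and 6.92 in OC2-WT, replicates 1 to 3 in each. OC2-KO replicate 3 was the lowest of all 6 arrays, and replicates 1 and 2 were the highest. The differences within the numbers were 1.06, 0.73 and -0.65, with a mean of 0.38 ± 0.47 (SE) and a limma p of 0.443. The other two carry the suffix x, meaning that their probes can bind other transcripts, and both lay below the filter. Probe set 1434366_x_at had 6.83, 6.35 and 7.12 in OC2-KO, against 6.48, 6.74 and 7.10 in OC2-WT, a mean difference of -0.0088. Probe set 1437726_x_at had 4.85, 5.89 and 6.17 in OC2-KO, against 2.71, 5.43 and 6.02 in OC2-WT. It was higher within all 3 numbers, by 2.14, 0.47 and 0.16, but the genotypes overlapped and the mean difference of 0.92 rested largely on a dim OC2-WT replicate 1.

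C1qc, the third chain, was below the filter on the means of both genotypes. Its log2 intensities were 6.43, 7.80 and 3.85 in OC2-KO replicates 1, 2 and 3, against 4.19, 5.77 and 6.15 in OC2-WT. Replicates 1 and 2 were higher in OC2-KO by 2.24 and 2.03, whereas OC2-KO replicate 3 was 2.30 below OC2-WT replicate 3. Pearson's r over the 6 arrays was 0.938 with C1qb 1417063_at, but -0.39 with 1434366_x_at and 0.37 with 1437726_x_at, given as descriptions because those arrays share genotype and replicate number. With C1qa, whose gene adjoins C1qc, r was 0.49.

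The proteases of both activating branches were dim. C2, the protease that C1s cleaves, has 3 probe sets, all below the filter. Probe set 1416051_at had log2 intensities of 5.28, 6.26 and 3.76 in OC2-KO and 4.13, 6.42 and 6.14 in OC2-WT, a mean difference of -0.46. Probe set 1441912_x_at had 5.70, 6.16 and 6.12 in OC2-KO and 5.61, 6.23 and 6.52 in OC2-WT, a mean difference of -0.12. The genotypes overlapped on both. Probe set 1457664_x_at had 5.89, 6.33 and 5.73 in OC2-KO and 1.83, 6.43 and 6.74 in OC2-WT. Its mean difference of 0.98 became -0.61 without OC2-WT replicate 1, so C2 had no direction here. Cfb, factor B of the alternative pathway, had 6.66, 6.04 and 5.66 in OC2-KO and 5.63, 6.07 and 3.24 in OC2-WT, with differences of 1.03, -0.033 and 2.42 within the numbers. Its mean difference of 1.14 drew most on the dim OC2-WT replicate 3, and it too was below the filter.

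Cfi, the protease that inactivates deposited fragments, had log2 intensities of 6.92, 7.80 and 6.33 in OC2-KO replicates 1, 2 and 3, against 7.24, 6.41 and 5.63 in OC2-WT. The genotypes overlapped, and the differences within the numbers were -0.32, 1.39 and 0.70. The mean was 7.02 ± 0.74 in OC2-KO and 6.43 ± 0.81 in OC2-WT (SD, n = 3 each), and the difference of 0.59 ± 0.51 (SE) had a limma p of 0.282. The mean difference equalled that of C1qa to the second decimal, but only C1qa was higher within every number.

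**Figure D2:**
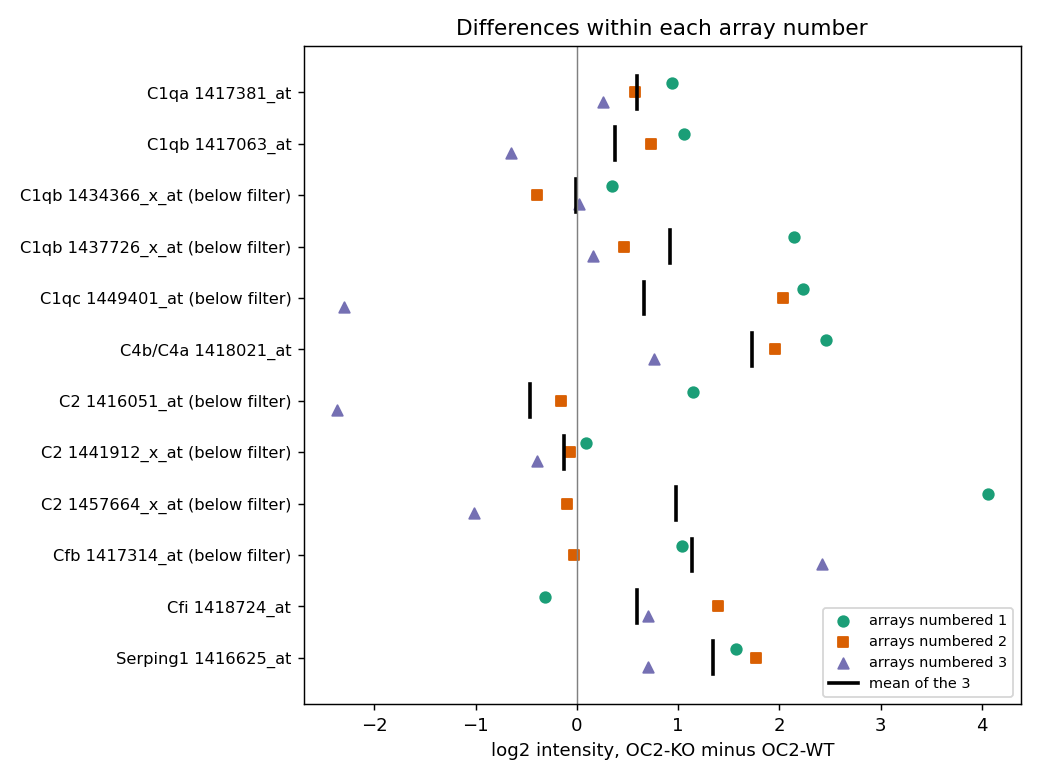
Difference in log2 intensity, OC2-KO minus OC2-WT (horizontal axis), within the array numbers 1, 2 and 3 for each of the 12 member probe sets, with a bar at the mean of the 3. The triangles, for arrays numbered 3, lie leftmost in 9 of the 12 rows.

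Counted together, 5 of the 5 member probe sets kept were higher in OC2-KO by their means, as were 48.1% of all probe sets kept. Within all 3 numbers, 3 were higher, C4b, Serping1 and C1qa, against 10.3% of all probe sets. The genotypes did not overlap for 2 of 5, both higher in OC2-KO, and this was so for 1.72% of all probe sets. At an unadjusted limma p of 0.05, 2 of 5 were higher and 0 lower, against 0.661% of all probe sets higher. After adjustment limma called 0 of the 5 and 0 of 21176 probe sets, the smallest adjusted p of any probe set being 0.210. The methods' t-test gave 2 members at an unadjusted p of 0.05 and 0 after adjustment, and limma with the replicate block gave 3 and 0, against 0.812% and 2.09% of all probe sets higher at the unadjusted p. With the block and an intensity trend, a fit added after seeing the data, 3 members were past the unadjusted p, against 1.92% of all probe sets, and 0 of the 6 probe sets past the adjusted p, 0.0283% of those tested, were members. The median difference was 0.59 over the 5 members and -0.0084 over all probe sets kept. Of the 7 member probe sets below the filter, the OC2-KO mean was above the OC2-WT mean in 4 and below it in 3, and all 7 overlapped between genotypes.

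**Figure D3:**
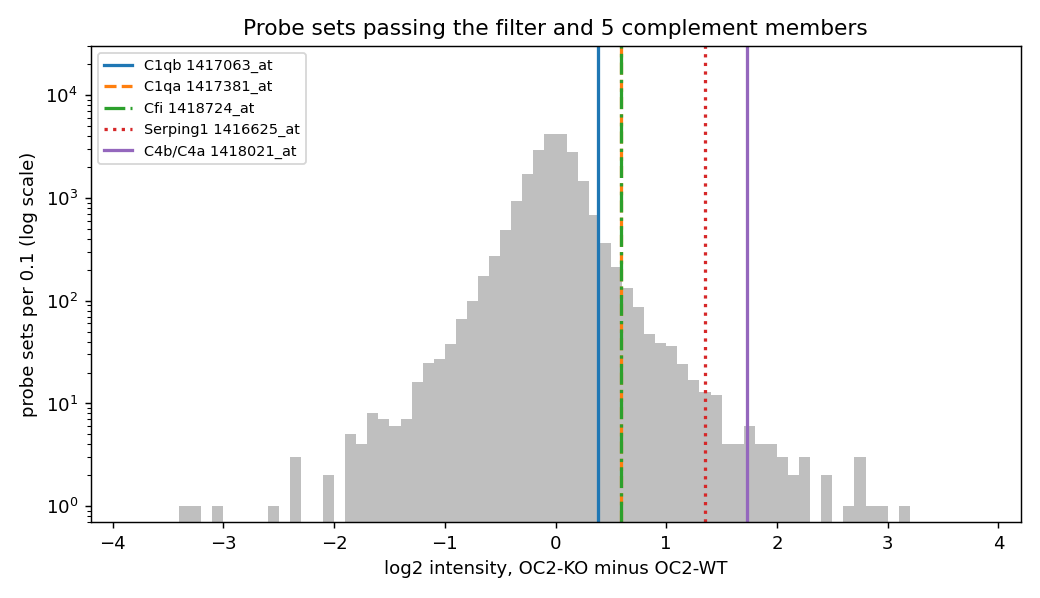
Number of probe sets per 0.1 step (vertical axis, log scale) by difference in log2 intensity, OC2-KO minus OC2-WT (horizontal axis), for the 21176 probe sets kept, with a line at each of the 5 members tested. C4b at 1.73 and Serping1 at 1.35 stand far out in the upper tail, whereas C1qb at 0.38, C1qa and Cfi, the last pair both at 0.59, lie closer to the bulk.

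The size of the complement differences depended on the array number. Number 3 gave the smallest of the 3 differences in 4 of the 5 members kept, against 34.1% of all probe sets kept. Counting dim probe sets too, it did so in 9 of the 12. The pattern was not particular to complement. Within the numbers Edn2 differed by 3.66, 2.97 and 2.76 and Tyrobp by 1.71, 1.17 and 0.29, whereas Cd44 1434376_at differed by 0.36, 1.37 and 1.51. The median over the 5 members was 1.06, 1.39 and 0.70 within the numbers 1, 2 and 3. Without both arrays numbered 3, 6 member probe sets passed the filter and 5 of them, all but Cfi, were past an unadjusted limma p of 0.05 and higher in OC2-KO, against 0.644% of all probe sets. C1qb, C1qc and Cfi passed the filter in that fit through their OC2-KO means alone, so the count does not support a difference. In that fit C4b was 4.62-fold, Serping1 3.18-fold, C1qc, whose OC2-WT readings lay below the filter, 4.39-fold, C1qb 1.86-fold and C1qa 1.69-fold higher, with unadjusted p of 0.00385, 0.0112, 0.0263, 0.0444 and 0.0443, and 0 passed adjustment. Leaving out OC2-KO replicate 3 alone also gave 5 of 6, with the same 3 passing the filter through OC2-KO alone, against 0.662% of all probe sets higher. The arrays numbered 3 differed from the rest in RNA quality, since the 3′ probe set of Actb exceeded the 5′ one by 3.39 in OC2-KO and 2.95 in OC2-WT on the log2 scale, against 1.41 and 0.74 in OC2-KO replicates 1 and 2 and 1.11 and 0.71 in OC2-WT replicates 1 and 2. They also had opposite sex patterns, as the Xist probe set 1427262_at read 2.20 in OC2-KO replicate 3 and 12.60 in OC2-WT replicate 3, whereas both arrays numbered 1 read low and both numbered 2 high. The part of either in these differences was not tested.

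Leaving out OC2-KO replicate 2, the brightest array for C4b and Serping1, lowered their differences to 1.36 and 0.97, with unadjusted p of 0.0245 and 0.0201. Over 17 alternative settings, the C4b difference lay between 1.36 and 2.21 and that of Serping1 between 0.97 and 1.67, with an unadjusted p under 0.05 in 17 of 17 for both. Their adjusted p ranged from 0.307 to 1.00 and from 0.418 to 1.00. For C1qa the difference lay between 0.30 and 0.93 and the unadjusted p was under 0.05 in 4 of 17.

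**Figure D4:**
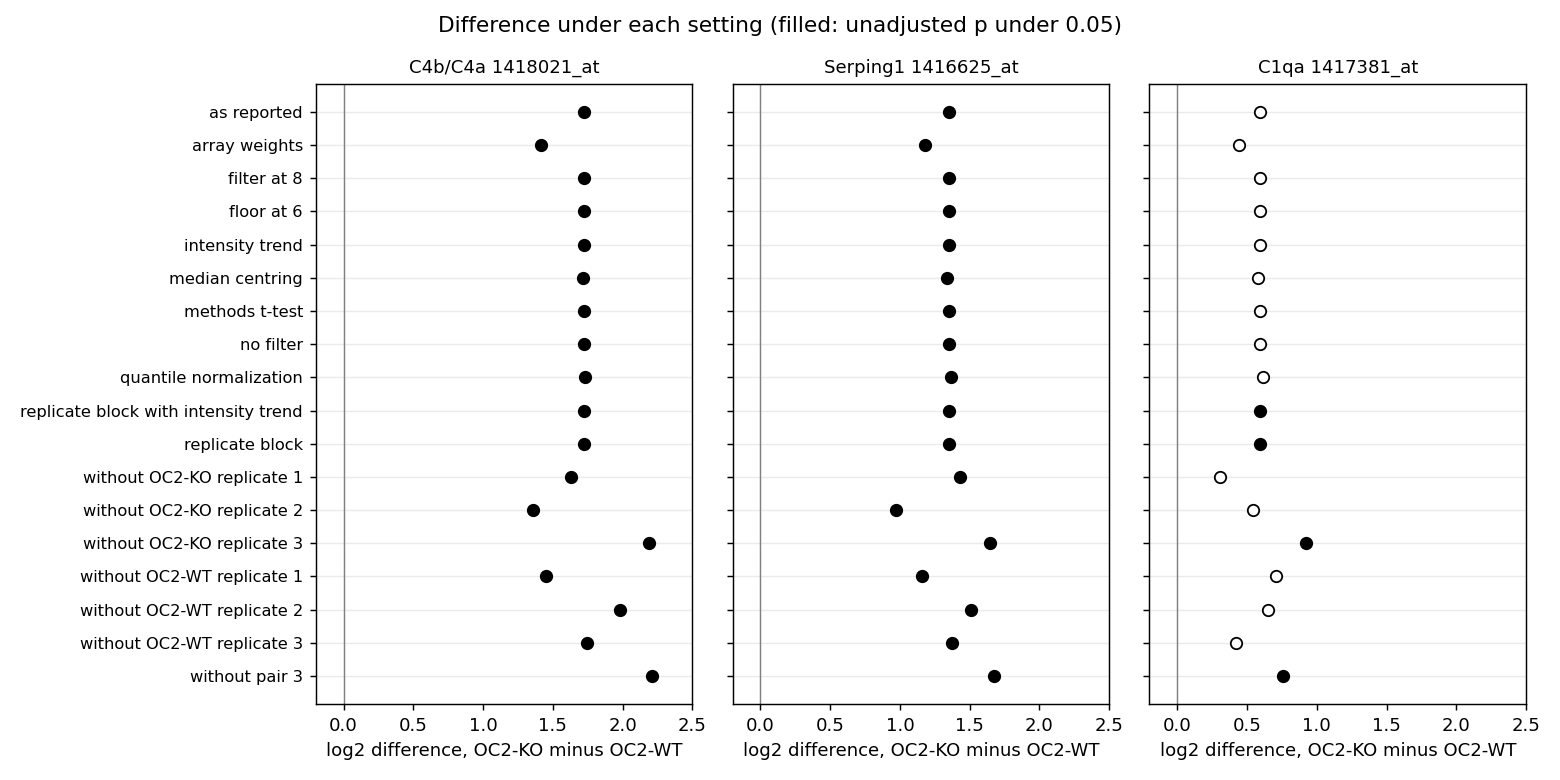
Difference in log2 intensity, OC2-KO minus OC2-WT (horizontal axis), of C4b, Serping1 and C1qa under each setting (rows), filled where the unadjusted p was under 0.05. C4b and Serping1 are filled in every row, and C1qa in 4 of the 17 alternatives.

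The C4b and Serping1 probe sets varied together across arrays, with a Pearson r of 0.981 over the 6 arrays. Of 18713 probe sets with 1 symbol, 47 had an r above 0.9 with C4b, and the 5 closest were Cebpb at 0.994, Tirap at 0.988, Chac1 at 0.987, Serping1 at 0.981 and Pros1 at 0.978. Cebpb encodes a transcription factor of inflammatory and acute-phase genes, and Pros1 encodes protein S, an anticoagulant that also serves as a ligand for receptors of phagocytosis. With Serping1, 41 of 18712 other probe sets with 1 symbol had an r above 0.9. The C4b probe set, which names a pair of genes, is not among these, and the 5 closest were Ipo9 at 0.980, Cebpb at 0.978, Cd44 at 0.970, Tirap at 0.969 and S100a16 at 0.965. Cebpb was 0.69 higher in OC2-KO, and this Cd44 probe set, of an adhesion receptor of reactive Müller glia, 0.99 higher. Chac1 was 0.75, Pros1 0.56, S100a16 0.50, Ipo9 0.31 and Tirap 0.27 higher. All were picked by likeness to members whose genotypes did not overlap. Differences in the same direction are therefore largely built in and test nothing. These likenesses are descriptions, since arrays of 1 genotype share its mean.

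The other complement genes gave few readings above the filter. Of 49 further complement genes, 40 had a probe set and 8 passed the filter, each gene taken by its brightest probe set. By mean, 5 were higher in OC2-KO and 3 lower, against 48.1% of all probe sets higher, and the median difference was 0.026. Limma called 0 of the 8 at an unadjusted p of 0.05, the smallest being 0.146, and 0 after adjustment. The methods' t-test put 1 past an unadjusted p of 0.05, Cr1l, against 0.812% of all probe sets higher. Cr1l, or Crry, a membrane regulator that protects rodent cells from complement, had log2 intensities of 8.42, 8.45 and 8.34 in OC2-KO, against 8.07, 8.27 and 7.87 in OC2-WT. It was the 1 gene of the 8 whose genotypes did not overlap, against 1.72% of all probe sets higher without overlap. Its difference was 0.34 ± 0.21 (SE), with a limma p of 0.146 and a p of 0.0479 by the methods' t-test. Its other two probe sets were below the filter with differences of -0.16 and 0.07.

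Among the soluble regulators, Clu, or clusterin, an inhibitor of the membrane attack complex that retina expresses strongly, was 0.35 ± 0.34 (SE) higher with overlapping genotypes, and its other three probe sets gave 0.28, 0.47 and 0.27. Cd59a, which blocks the same complex at the cell surface, differed by 0.04 and 0.13 on its 2 probe sets. Cfp, or properdin, the stabiliser of the alternative convertase, had the lowest difference of the 8, at -0.37 ± 0.55 (SE). Of 10 initiating proteases and lectins with a probe set, 0 passed the filter, and of 8 receptors, 0. C1ra and C1s1, the proteases that Serping1 inhibits, differed in mean by -0.55 and 0.63 at levels below the filter. The receptor genes C3ar1, Itgam and Itgb2, which bind complement fragments on myeloid cells, were likewise below it, with mean differences of 0.06, 0.98 and 0.68 on their brightest probe sets. Cd55, a regulator that dissociates the convertases, had 3 probe sets below the filter with differences of 1.02, 2.23 and -1.05.

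Because whole retina was measured, more cells of a type and more RNA per cell cannot be told apart, and marker levels are given beside the members. Of 14 microglia and macrophage markers, 8 passed the filter and 7 of these were higher in OC2-KO by mean, against 48.1% of all probe sets kept. In the fit without a block 1 marker was past an unadjusted limma p of 0.05, against 0.661% of all probe sets higher. It was Tyrobp, a signalling adaptor of myeloid cells, at 1.05 ± 0.30 (SE) higher with an unadjusted p of 0.00945 and an adjusted p of 1.00. Its log2 intensities were 8.45, 8.42 and 7.97 in OC2-KO, against 6.74, 7.26 and 7.69 in OC2-WT. The summed intensity of the 13 markers with a probe set, those below the filter included, ran from 3805 to 4841 in OC2-KO. In OC2-WT it ran from 2750 to 3561, without overlap, and the log2 ratio was 0.47, 0.44 and 0.27 within the numbers. With the replicate block, 4 of the 8 were past the unadjusted p and higher, Tyrobp, Tmem119, Ly86 and Ctss, against 2.09% of all probe sets. These 4 and Csf1r were higher within all 3 numbers, against 10.3% of all probe sets. Tmem119 passed the filter through its OC2-KO mean alone, so its place in these counts does not support a difference. The microglia marker Tmem119 differed by 0.84, whereas Cx3cr1 differed by 0.27 and P2ry12, below the filter, by 0.04.

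The 6 reactive glia markers, each taken by its brightest probe set, all passed the filter. By mean 5 were higher in OC2-KO, against 48.1% of all probe sets kept. At an unadjusted limma p of 0.05, 2 were higher, Gfap at 1.40 and Cd44 at 1.08, against 0.661% of all probe sets. The other Gfap probe sets were 2.21 and 1.85 higher, and both passed the filter through their OC2-KO means alone. With the replicate block 4 were past that p and higher, Osmr and Lcn2 with them, against 2.09% of all probe sets. Lcn2 passed the filter through its OC2-KO mean alone, so its place in these counts does not support a difference. The list's summed intensity ran from 3568 to 9177 in OC2-KO and from 3378 to 6319 in OC2-WT. On every array most of this sum came from Vim, which differed by -0.08. Like the complement members, the list had its smallest median difference in number 3, at 0.98, 1.40 and 0.09 within the numbers. Serpina3n, an acute-phase serpin of reactive astroglia, differed by 1.18, 2.35 and -0.45 within the numbers. Sums of 8 Müller glia markers overlapped, at 30342 to 47049 in OC2-KO and 35975 to 42937 in OC2-WT. Those of 5 endothelial markers overlapped too, at 1434 to 2629 in OC2-KO and 1179 to 2288 in OC2-WT. Of 4 blood and plasma markers with a probe set, 0 passed the filter, among them Alb, the albumin gene of liver, with sums of 50.8 to 149 in OC2-KO and 80.6 to 112 in OC2-WT. Sums of 7 pigment epithelium markers overlapped, at 13264.5 to 65828 in OC2-KO and 22921 to 81368 in OC2-WT. Within the numbers their log2 ratios were -0.79, -0.15 and -0.31. On every array most of this sum came from Ttr, which differed by -0.39. Photoreceptor sums overlapped as well. Lens sums overlapped too, but their log2 ratios were -0.76, 0.84 and 2.65 within the numbers, with a sum of 24004 in OC2-KO replicate 3 against 3816 in OC2-WT replicate 3. The part of these cell types in the complement differences was not tested.

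**Figure D5:**
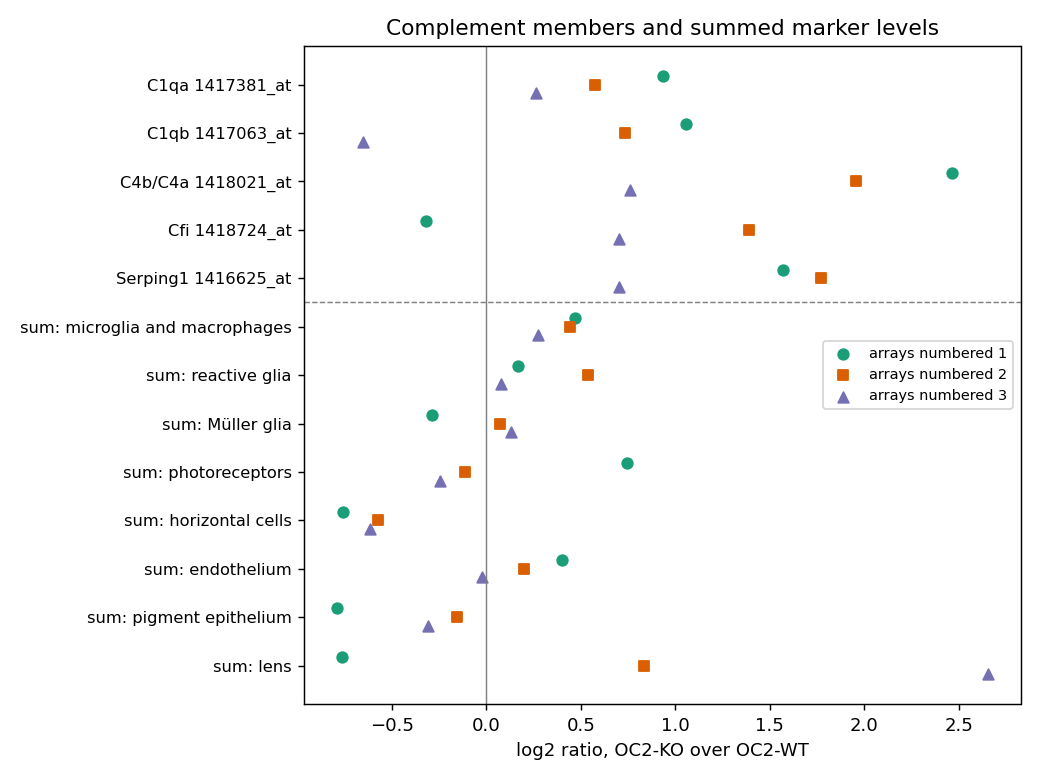
Log2 ratio of OC2-KO over OC2-WT (horizontal axis) within the array numbers 1, 2 and 3, for the 5 complement members tested (above the dashed line) and for the summed intensity of 8 marker lists (below it). C4b and Serping1 lie further right than the microglia and macrophage sum, at 0.47, 0.44 and 0.27, in every number. A sum is led by its brightest genes and is not the same measure as a single probe set. The part of microglia in the complement differences was not tested.

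The horizontal cell list was lower in OC2-KO, with sums of 6535 to 8702 against 11054 to 13168 in OC2-WT. Of its 4 markers kept, 2 were lower at an unadjusted limma p of 0.05, Calb1 and Septin4. Over all 21176 probe sets, 209 were past that p in either direction, 140 of them higher in OC2-KO. The study reported Calb1 and Septin4 as lower from these same arrays, so the list is no independent check on the labels. The Onecut2 probe set 1440005_at read higher in OC2-KO, at 8.87, 8.58 and 8.69, against 6.61, 5.96 and 6.38 in OC2-WT. Per the study, the array's Onecut2 sequences lie at the 3′ end of the gene, so these readings do not check the genotype. Median intensities ran from 94.9 to 110 over the 6 arrays.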

How the data were processed

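Retinal RNA was extracted, amplified, biotin-labelled and hybridised to Affymetrix Mouse Genome 430 2.0 arrays, 1 per sample. The authors background-adjusted and scaled the scans with MAS5 (version not given in the sources used here), and the deposited values are linear intensities with a 2% trimmed mean of 500 on each array. This scaling hides any difference common to all genes. Scanner files, detection calls and hence the depth of each reading were not analysed here, and 3 arrays per genotype limit the precision. No 2 arrays were identical.

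Intensities were log2-transformed, 64 control probe sets were left out, and probe sets with a mean above 7 in either genotype were kept, as in the methods. The contrast OC2-KO minus OC2-WT was estimated by limma 3.58.1 (lmFit, eBayes) in R 4.3.3, two-sided, without a block, with 4 residual degrees of freedom. Fits were tested on simulated data. Fold changes of dim probe sets are uncertain. Probe sets were named from the platform annotation, where 34945 had 1 symbol, 932 several and 9160 none. Of the first, 34741 matched a GRCm38.p6 gene table by gene number, with 0 symbols changed.

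The members, the pathway and marker lists and the rule for named genes were chosen with earlier results of these data known. All member probe sets were named, and of the pathway list those past an unadjusted p of 0.05, those whose genotypes did not overlap, and a set of named components, regulators and receptors. For C4b and Serping1 the 5 closest probe sets with 1 symbol by Pearson r were named. Cfp, Cpn2 and the separate markers described were named after their values were seen. Alternatives were the replicate block (the numbers pair the arrays by the correlations given above, since the labels do not say that a number marks a litter), filters, a floor, normalizations, a trend, array weights, the methods' t-test and left-out arrays. The block with a trend was added after seeing the data.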

Additional observations from a re-analysis of the deposited data

How the results depend on the processing

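The count of probe sets past an unadjusted limma p of 0.05 was 209, and became 436 with array weights, 127 with a filter at 8, 1144 with no filter, 887 with the replicate block and 779 with the block and an intensity trend, the last chosen after seeing the data. It ran from 209 to 560 when 1 array was left out, 560 without OC2-KO replicate 2. The count of members past that p was 2, with 5 without pair 3 (both arrays numbered 3), and 2 to 5 with 1 array left out, 5 without OC2-KO replicate 3. It was 3 with the replicate block, which added C1qa and changed no adjusted call of a member. The members' median difference of 0.59 was 1.35 with a filter at 8, 0.99 under quantile normalization, 1.28 without pair 3 and 0.42 to 1.29 with 1 array left out, and these settings also moved how many members were kept, from 3 to 6. The pathway count of 0 became 1 with the methods' t-test, Cr1l, and 1 with no filter, Cpn2 (log2 difference 1.86, unadjusted p of 0.0424), a subunit of the enzyme that clips anaphylatoxins, at levels below the filter. Each of C4b, Serping1 and C1qa kept its direction in every alternative in which it was kept. C1qb and Cfi did so too, but they passed the reported filter through their OC2-KO means alone, which favours that direction. Of the members below the filter, Cfb kept its direction in 9 of 9 alternatives, whereas C2, C1qc and the 2 dim C1qb probe sets did not. The median over all probe sets moved only between -0.038 and 0.015 over the settings. With 3 arrays a genotype and no detection calls, readings below the filter carry no reliable fold.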
